A study of Mus musculus with 39 samples.

Results

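The mouse carries 8 sarcomeric myosin heavy chain genes that are dealt with here, Myh3, Myh8, Myh1, Myh2, Myh4, Myh6, Myh7 and Myh13, and all 8 were found by symbol and Ensembl identifier among the 21561 genes that both deposited count tables list. Their transcripts were followed in the gubernaculum, the cord that anchors the fetal and newborn testis and that in rodents develops a muscular wall, with testis as the reference tissue. RNA was sequenced from 15 gubernaculum libraries, 3 for each of 5 groups, and from 24 testis libraries. All mice were male C57BL/6J. The P8 gubernaculum groups (postnatal day 8) were wild type (WT), cetacean INSL3 knock-in (INSL3-KI) and INSL3 knockout (INSL3-KO), and the P23 gubernaculum groups (postnatal day 23) were WT and INSL3-KI. The testis libraries, 3 a group, covered the 3 genotypes at both ages, and WT and INSL3-KI also at P40 (postnatal day 40). In INSL3-KI mice the minke whale INSL3 cDNA was placed at the mouse Insl3 locus by homologous recombination, and how the knockout allele was made is not given in the sources used here. INSL3-KO gubernaculum at P23 was not sequenced because the study found it too degenerate for RNA.

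Myosin heavy chains are the motor proteins of the thick filament. The embryonic chain Myh3 and the neonatal chain Myh8 are used by forming and newborn skeletal muscle and are replaced after birth by the adult fast chains Myh1 (type IIx), Myh2 (type IIa) and Myh4 (type IIb). Myh7 encodes the slow chain of type I fibres and of the heart, Myh6 the second cardiac chain, and Myh13 a fast chain best known from extraocular muscle. INSL3 is a hormone of Leydig cells that acts on the gubernaculum through the receptor Rxfp2.

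The fast and developmental genes lie head to tail on the plus strand of chromosome 11 (GRCm38, GENCODE annotation). Their order is Myh3 (ENSMUSG00000020908, 67078300 to 67102291), Myh2 (ENSMUSG00000033196, 67171027 to 67197517), Myh1 (ENSMUSG00000056328, 67200052 to 67224575), Myh4 (ENSMUSG00000057003, 67238029 to 67260446), Myh8 (ENSMUSG00000055775, 67277124 to 67308634) and Myh13 (ENSMUSG00000060180, 67321658 to 67371586). The cardiac pair lies on the minus strand of chromosome 14, Myh6 (ENSMUSG00000040752) from 54941921 to 54966927 and Myh7 (ENSMUSG00000053093) from 54970684 to 54994626. Because these genes are close copies, the share of 50-base windows of a transcript that another member holds unchanged ranged from 4.81% for Myh3 to 26.9% for Myh2, and over 150 bases from 0.306% for Myh3 to 5.53% for Myh6. Low counts of a member in a library rich in another are therefore uncertain. Annotated antisense genes overlap Myh1 (Myhas), Myh2 (9430073C21Rik), Myh6 (Gm49130) and Myh7 (Mhrt, Gm29015, Gm31251), and since the strand setting of the counting is not given in the sources used here, reads from these cannot be told apart from those of the sense gene.

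The promoters are shown for the 5 genes with the largest fitted changes between P8 and P23 in WT below, because 4 of them share sequence. The RefSeq promoter table (GRCm38.p6, 250 bases before to 50 after the gene start) held all 8 genes. Capitals mark TTCTAATTATATCC, TCAAATTAT and TATAAA where they stand on the gene's own strand.
Myh3 (chr11:67078050-67078349, plus strand): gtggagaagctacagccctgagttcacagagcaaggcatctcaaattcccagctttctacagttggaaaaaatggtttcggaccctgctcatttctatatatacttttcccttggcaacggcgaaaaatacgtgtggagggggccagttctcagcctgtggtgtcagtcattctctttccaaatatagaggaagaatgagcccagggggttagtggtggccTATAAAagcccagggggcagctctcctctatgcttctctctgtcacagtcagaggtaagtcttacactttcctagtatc
Myh8 (chr11:67276874-67277173, plus strand): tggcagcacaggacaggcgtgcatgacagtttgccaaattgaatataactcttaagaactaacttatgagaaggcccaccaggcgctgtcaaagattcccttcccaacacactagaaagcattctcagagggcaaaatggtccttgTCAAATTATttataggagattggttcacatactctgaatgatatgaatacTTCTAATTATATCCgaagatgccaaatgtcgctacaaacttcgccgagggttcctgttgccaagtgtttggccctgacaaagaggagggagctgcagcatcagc
Myh1 (chr11:67199852-67200151, plus strand): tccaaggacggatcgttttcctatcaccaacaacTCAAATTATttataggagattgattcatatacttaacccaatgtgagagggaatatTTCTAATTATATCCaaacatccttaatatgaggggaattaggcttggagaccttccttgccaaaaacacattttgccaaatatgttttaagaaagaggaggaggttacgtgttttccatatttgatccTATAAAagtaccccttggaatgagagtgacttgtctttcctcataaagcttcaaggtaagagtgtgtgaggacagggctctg
Myh2 (chr11:67170777-67171076, plus strand): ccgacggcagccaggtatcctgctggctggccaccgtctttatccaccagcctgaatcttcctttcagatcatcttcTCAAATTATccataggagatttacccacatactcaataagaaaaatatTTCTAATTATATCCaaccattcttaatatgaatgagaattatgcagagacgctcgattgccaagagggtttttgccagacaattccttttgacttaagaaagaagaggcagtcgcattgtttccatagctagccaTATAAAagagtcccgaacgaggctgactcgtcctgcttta
Myh4 (chr11:67237562-67237861, plus strand): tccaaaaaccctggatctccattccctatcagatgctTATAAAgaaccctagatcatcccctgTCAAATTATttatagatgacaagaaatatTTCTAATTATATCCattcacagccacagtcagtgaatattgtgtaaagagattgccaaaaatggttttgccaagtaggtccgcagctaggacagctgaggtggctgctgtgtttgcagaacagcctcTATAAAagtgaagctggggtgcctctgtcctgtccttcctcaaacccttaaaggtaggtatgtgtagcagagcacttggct

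Each exact run of at least 9 bases that the promoters of at least 4 members share was searched, and there were 2. TTCTAATTATATCC stood in Myh8, Myh1, Myh2 and Myh4 and, searched on both strands, in no other of 32851 promoters of this length (0.0122% of them). TCAAATTAT stood upstream of it in the same 4 genes and in 0.180% of all promoters. The 14-base run began at -160 from the RefSeq start in Myh1, -158 in Myh4, -125 in Myh2 and -54 in Myh8. Neither run is in the Myh3, Myh6, Myh7 or Myh13 window. TATAAA, present in 13.6% of promoters on either strand, began at -29 in Myh3, -32 in Myh1 and -31 and -213 in Myh4, and inside the transcribed part, at 11, in Myh2. These are matches of letters and were not tested as binding sites. Those 4 genes did not share a course with age in the values below, as Myh8 is the neonatal gene among them.

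The gubernaculum libraries held between 29861447 and 45260372 counts each. Insl3 had 25 to 87 reads in WT gubernaculum at P8 and 0 in all INSL3-KI and INSL3-KO libraries of that age. In P8 testis Insl3 lay between 110 and 139 FPKM in WT, 0.684 and 1.40 in INSL3-KI and 25.1 and 33.5 in INSL3-KO, all mutant values being below all WT values. The INSL3-KO testis libraries of that age thus kept Insl3 reads. At P23 those of INSL3-KO testis kept next to none, with 0 to 0.180 FPKM against 801 to 978 in WT. The difference between the ages was not tested. In P23 gubernaculum Insl3 was near its limit in both genotypes, with 9 to 27 reads in WT and 0 to 28 in INSL3-KI, and so checks nothing there. Rxfp2, the receptor that marks gubernaculum, measured 13.4 to 16.8 FPKM in WT gubernaculum at P8 and 0.645 to 0.847 in INSL3-KI, while the INSL3-KO libraries stood at 3.99, 3.61 and 20.1. White adipocyte markers (Adipoq, Plin1, Cidec, Lep) summed to at most 0.957 FPKM in WT at P8 but to 166 to 242 in INSL3-KI and 335 to 357 in INSL3-KO. Epididymis markers likewise summed to at most 0.0563, to 493 to 1225 and to 674 to 746 FPKM, and hepatocyte markers in the INSL3-KO libraries to 2787, 659 and 57.4. The part of these other cell types in the results below was not tested. In bulk tissue, fewer muscle cells and less myosin RNA per cell cannot be told apart.

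In WT gubernaculum at P8 all 8 genes were higher than in WT testis of the same age, against 14.1% of all genes tested that were called higher (edgeR quasi-likelihood test, adjusted p under 0.01 and at least 2-fold). The margin ran from a log2 fold change of 13.20 ± 0.31 (SE) for Myh8 to 1.51 ± 0.31 for Myh6. Testis summed to between 4.05 and 6.61 FPKM over the 8 genes at P8, and Myh6 and Myh7 made up 76.4% ± 5.7 (SD, n = 3) of that. The Myh6 call (adjusted p = 0.0046, edgeR) is the weakest of the 8 and was lost in 8 of 12 alternative analyses.

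Ordered by FPKM, which is per length, the P8 WT gubernaculum had most Myh8 (1270 ± 271, SD, n = 3), then Myh3 (537 ± 27.2), Myh7 (203 ± 28.3), Myh1 (88.6 ± 52.2) and Myh2 (34.8 ± 25.5). Myh13 (6.58 ± 1.87), Myh4 (6.37 ± 3.88) and Myh6 (5.42 ± 1.53) came last. In the better-counted libraries deposited with WT gubernaculum, the length implied by counts and FPKM varied for Myh13 (2586 to 6234 bases) and Myh6 (4246 to 6361). Their FPKM, and shares and ratios built on it, are thus less certain. By share of counts Myh13 (0.232%) lay below Myh4 (0.282%). Values of Myh1 and Myh2 overlapped between libraries, as did those of the last 3 genes, whereas Myh8, Myh3 and Myh7 overlapped with no neighbour in this order. The neonatal gene therefore stood above the embryonic one, and the slow gene above every adult fast gene.

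**Figure D1:**
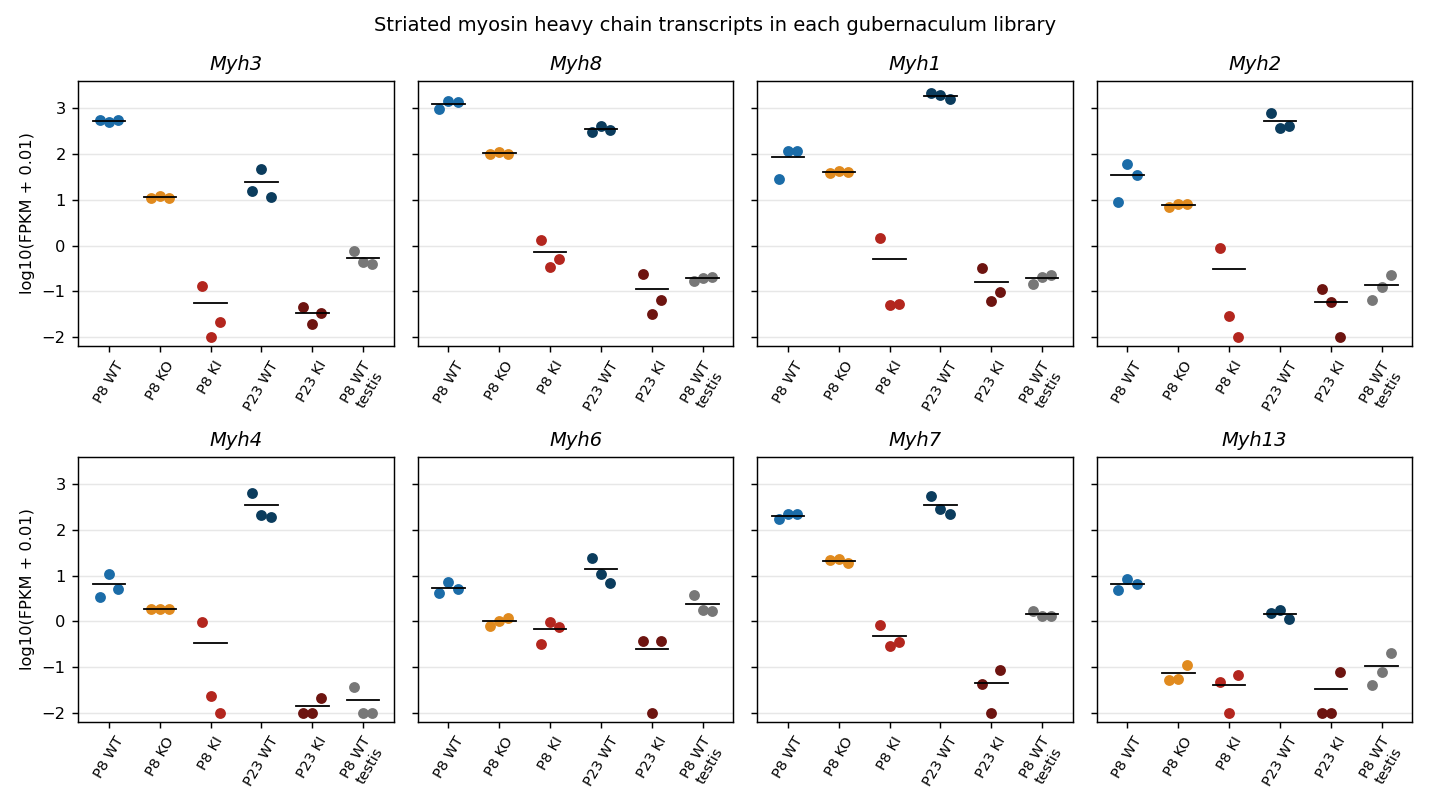
Level of each of the 8 genes as log10(FPKM + 0.01) in every gubernaculum library and in P8 WT testis. Points are libraries and black lines the log of the mean FPKM. At P8 the INSL3-KO libraries lie between WT and INSL3-KI for Myh3, Myh8, Myh2, Myh4 and Myh7 and inside the WT range for Myh1, and at both ages all INSL3-KI points lie below all WT points.

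Both developmental genes were far lower in the mutants at P8. Myh3 measured 557, 506 and 548 FPKM in WT, 10.8, 12.1 and 11.1 in INSL3-KO and 0.122, 0 and 0.0108 in INSL3-KI, where the libraries held only 26, 0 and 3 reads. The 3 groups did not overlap. Relative to WT, Myh3 was 52.9-fold lower in INSL3-KO (log2 fold change -5.72 ± 0.09 SE, edgeR adjusted p = 2.4e-07), while its fitted change in INSL3-KI was -13.76 ± 0.73 (adjusted p = 2.8e-06) and rests on very few reads. Myh8 measured 964, 1478 and 1369 FPKM in WT, 101, 110 and 102 in INSL3-KO and 1.28, 0.332 and 0.495 in INSL3-KI. Again no groups overlapped, and the change was -3.78 ± 0.17 in INSL3-KO (adjusted p = 3.7e-06) and -11.19 ± 0.65 in INSL3-KI (adjusted p = 4.4e-06).

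By P23 the developmental genes had fallen in WT. Myh3 stood at 15.3, 46.4 and 11.7 FPKM, below all P8 WT values, with a log2 fold change of -4.38 ± 0.54 (edgeR adjusted p = 0.0019). Myh8 stood at 313, 407 and 338 FPKM and changed less, by -1.76 ± 0.26 (adjusted p = 0.0033). In INSL3-KI gubernaculum at P23, Myh3 had 8, 3 and 6 reads and Myh8 had 54, 5 and 15 reads, and both were called lower than in WT (adjusted p = 0.0027 and 0.0046, edgeR).

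The adult fast genes were low at P8 and varied between WT libraries. Myh1 measured 28.3, 118 and 119 FPKM in WT, 39.6, 43.4 and 40.1 in INSL3-KO and 1.44, 0.0401 and 0.0433 in INSL3-KI. The INSL3-KO values lie inside the WT range, and the change of -1.24 ± 0.48 did not pass (edgeR adjusted p = 0.052). Without WT replicate 1, which had the lowest Myh1, Myh2 and Myh4 of its group, all 8 genes were called lower in INSL3-KO. The share of all genes called in that fit is not given here.

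Myh2 measured 8.97, 60.0 and 35.5 FPKM in WT, 7.02, 8.12 and 7.96 in INSL3-KO and 0.874, 0.0183 and 0 in INSL3-KI. Its change in INSL3-KO was -2.37 ± 0.60 and did not pass, its edgeR adjusted p of 0.01 lying just above the threshold before rounding. Myh4 measured 3.31, 10.7 and 5.07 FPKM in WT and 1.82, 1.86 and 1.85 in INSL3-KO, with no overlap and a change of -1.95 ± 0.40 (adjusted p = 0.0039) that was lost in 4 of 11 alternatives. In INSL3-KI, replicate 1 held most of the fast myosin reads, with 307 of Myh1, 187 of Myh2 and 205 of Myh4 against at most 9 of any of them in the other two libraries. Striated myosin light chains also stood highest in that library, summing to 19.4 FPKM against 4.22 and 8.22, while the skeletal muscle markers, mostly Acta1 and Des, summed to 746 FPKM against 1101 and 1270. Myh1 and Myh2 were called lower in INSL3-KI all the same (-7.73 ± 1.28 and -7.15 ± 1.27), Myh4 was not (-4.59 ± 1.20, edgeR adjusted p = 0.012), and without that library all 8 genes were called. The share of all genes called without that library is not given here.

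All 3 adult fast genes rose between P8 and P23 in WT. Myh1 reached 2219, 1945 and 1576 FPKM, a 23.6-fold rise (log2 fold change 4.56 ± 0.60, edgeR adjusted p = 0.0023), and was then the most abundant of the 8. Myh2 reached 781, 370 and 418 FPKM (4.05 ± 0.72, adjusted p = 0.0062). Myh4 reached 638, 216 and 195 FPKM and rose most, 61.4-fold (5.94 ± 0.75, adjusted p = 0.0021). No P23 value of these genes overlapped with a P8 value.

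In INSL3-KI gubernaculum at P23 the adult fast genes were nearly absent. Myh1 had 70, 12 and 22 reads there against 354843 to 473183 in WT, and Myh2 had 23, 11 and 0 against 83719 to 167293. Myh4 had 0, 0 and 3 reads, within the 3 counts taken as not detected, against 43821 to 135552, so that it was at least 26797-fold lower in CPM. All 3 were called lower than in WT (edgeR adjusted p = 0.0042, 0.0088 and 0.0036).

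The slow gene Myh7 was 171, 220 and 219 FPKM in WT at P8, 21.6, 22.99 and 19.2 in INSL3-KO and 0.817, 0.278 and 0.334 in INSL3-KI. The groups did not overlap, and the changes were -3.42 ± 0.14 (edgeR adjusted p = 2.2e-06) and -9.06 ± 0.45 (adjusted p = 2.0e-06). At P23 Myh7 stood at 557, 285 and 227 FPKM in WT, all above the P8 values, but the change of 0.96 ± 0.40 did not pass (adjusted p = 0.096). It had 8, 0 and 20 reads in INSL3-KI of that age and was called lower (log2 fold change -13.57, adjusted p = 0.0061).

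Myh6, the cardiac gene, was highest in P23 WT gubernaculum, at 6.70 to 23.7 FPKM, and lay at 0 to 0.357 in INSL3-KI of that age. It measured 4.13, 7.10 and 5.02 FPKM in WT at P8, 0.770, 1.01 and 1.19 in INSL3-KO and 0.311, 0.947 and 0.733 in INSL3-KI, so the mutants overlapped with each other but not with WT. INSL3-KI gubernaculum held less Myh6 than P8 WT testis, where it was 1.64 to 3.81 FPKM. Cardiac markers (Nppa, Nppb, Tnnt2, Tnni3, Myl7, Ryr2, Hcn4) summed to between 292 and 382 FPKM in P8 WT gubernaculum, 44.5 and 51.3 in INSL3-KO and 25.3 and 34.3 in INSL3-KI, and Nppb was at 0 in INSL3-KI. Nearly all of the WT and INSL3-KO sums was Tnnt2, which was called lower in both mutants (-4.19 in INSL3-KI and -2.92 in INSL3-KO). Of 4 markers tested in INSL3-KI, Ryr2 (3.18) and Hcn4 (5.48) were called higher and the median was 1.55, and of 3 tested in INSL3-KO only Tnnt2 was called. The part of cardiac-type RNA in the Myh6 values was not tested. Myh6 was called lower than in WT in INSL3-KO (-2.40 ± 0.18) and in INSL3-KI (-3.16 ± 0.36), and its rise with age in WT (1.498 ± 0.45, edgeR adjusted p = 0.035) did not pass.

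Myh13 was 4.83, 8.55 and 6.36 FPKM in WT at P8 and 0.0415, 0.0436 and 0.101 in INSL3-KO, a 107-fold lower level (-6.74 ± 0.30, edgeR adjusted p = 3.2e-06) that is the largest change of any member in INSL3-KO. WT libraries held 834 to 1436 Myh13 reads. Replicate 2, highest in FPKM, had the lowest Myh13 share of the counts of the 8 genes (0.147%, against 0.275% and 0.274%). INSL3-KI libraries held 8, 0 and 11 Myh13 reads and INSL3-KO libraries 11, 13 and 17, so both lay near the limit of detection. In WT, Myh13 moved with the developmental genes and not with the adult fast genes, falling to 1.53, 1.76 and 1.09 FPKM at P23 (-1.65 ± 0.28, adjusted p = 0.0054).

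Set against the background of each comparison, the P8 counts were as follows. In INSL3-KI at P8, 7 of 8 genes were called lower, all but Myh4, where 9.70% of all tested genes were, with a median log2 fold change over the 8 of -7.65 against 0.02 over all genes. In INSL3-KO at P8, 6 of 8 were called lower, all but Myh1 and Myh2, where 15.2% of all tested genes were, with a median of -2.91 against 0.03. The INSL3-KO libraries stand in another deposited table than the WT and INSL3-KI gubernaculum libraries, so a difference between tables and one between genotypes cannot be told apart. Both comparisons share the WT libraries.

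The mutants were also compared directly. At P8 the INSL3-KI libraries were called below the INSL3-KO libraries for 5 of the 8 genes, against 10.5% of all genes, and above them for 0, against 11.9%. These were Myh3 (-8.07 ± 0.61), Myh8 (-7.44 ± 0.54), Myh1 (-6.52 ± 1.14), Myh7 (-5.67 ± 0.39) and Myh2 (-4.83 ± 1.16, edgeR adjusted p = 0.0089). The Myh2 call was lost in 9 of 11 alternatives. Myh4 (-2.69 ± 1.34, adjusted p = 0.12), Myh6 (-0.80 ± 0.40, adjusted p = 0.12) and Myh13 (-0.87 ± 0.85, adjusted p = 0.4) did not pass. Summed over the 8 genes, the INSL3-KO libraries held 183 to 199 FPKM, the INSL3-KI libraries 1.63 to 5.85 and the WT libraries 1741 to 2409.

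**Figure D2:**
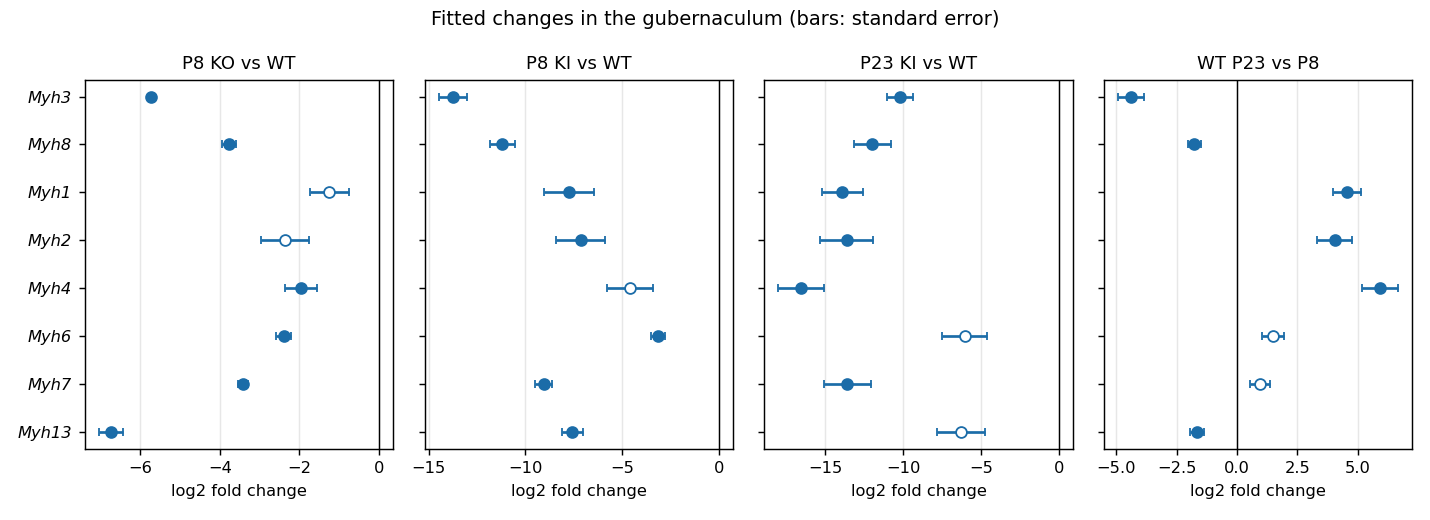
Log2 fold changes with their standard errors in 4 gubernaculum comparisons; each panel has its own axis. Filled points passed the test (adjusted p under 0.01 and at least 2-fold). In INSL3-KO the adult fast genes changed least (-1.24 to -2.37) and Myh13 and Myh3 most; with age in WT, Myh3, Myh8 and Myh13 fell while Myh1, Myh2 and Myh4 rose.

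At P23, 6 of 8 genes were called lower in INSL3-KI than in WT, against 2.35% of all genes, and 0 higher, against 0.212%. Myh6 (-6.03 ± 1.44, edgeR adjusted p = 0.047) and Myh13 (-6.27 ± 1.52, adjusted p = 0.048) did not pass. This result rests on the P23 libraries that vary most. Leaving out any 1 of the 3 WT libraries left 1 gene called, leaving out INSL3-KI replicate 1 left 2, and a replicate block left 0, while DESeq2 called all 8. Shares of all genes called in these alternatives are not given here, and 2.35% is no background for them. The 3 INSL3-KI libraries differed in tissue content, with adipocyte markers at 1646, 3143 and 123 FPKM and epididymis markers at 1537, 0.921 and 5415. WT replicate 3 held epididymis markers as well, at 629 FPKM. Summed over the 8 genes the INSL3-KI libraries nonetheless all lay low, at 0.131 to 1.06 FPKM against 2774 to 4549 in WT.

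Whether the effect of INSL3-KI differed between P8 and P23 was tested with an interaction term, and no member passed, where 0.194% of all genes were called lower and 0.0874% higher (6 of the 8 had an unadjusted p under 0.05). For members near the limit of detection in INSL3-KI at both ages the test cannot decide this. Myh3 had 0 to 26 reads there at P8 and 3 to 8 at P23, and Myh13 had 0 to 11 and 0 to 18. The lowest adjusted p-values were those of Myh4 (-11.93 ± 2.47, edgeR adjusted p = 0.023) and Myh7 (-4.51 ± 1.03, adjusted p = 0.032), and the fitted differences of Myh2 (-6.47 ± 2.14) and Myh1 (-6.18 ± 1.76) were larger than that of Myh7. DESeq2 called 3 lower, Myh1, Myh4 and Myh7, and its share of all genes is not given here. Within INSL3-KI, no member was called between P8 and P23, where 0% of all genes were called in either direction. Only 5 could be tested, since Myh3, Myh4 and Myh13 had too few counts, 2 of these 5 had an unadjusted p under 0.05, and DESeq2 also called none.

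With age in WT, 3 of 8 genes were called lower (Myh3, Myh8 and Myh13), where 4.34% of all genes were, and 3 higher (Myh1, Myh2 and Myh4), where 6.17% were. These calls rest on 3 libraries a group. Without P8 WT replicate 3 none of the 6 was called, without P8 WT replicate 1 only 1 rise and without P8 WT replicate 2 only 1 fall and 1 rise were called, and without P23 WT replicate 3 there was 1 fall. The direction of each of the 8 genes stayed the same in all 13 alternatives.

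The mix of isoforms was taken within each library, relative to its own summed FPKM of the 8 genes. In WT at P8 the developmental pair made up 84.3% ± 2.69 (SD, n = 3), the adult fast genes 5.70% ± 2.95 and the slow and cardiac pair 9.73% ± 0.305. In WT at P23 the developmental pair made up 11.2% ± 3.52, the adult fast genes 78.7% ± 1.45 and the slow and cardiac pair 10.1% ± 2.36. The slow share thus overlapped between the ages while the developmental and fast shares changed places, Myh8 going from 58.7% ± 3.05 to 10.5% ± 3.13 and Myh1 from 3.90% ± 1.97 to 55.0% ± 5.48.

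In INSL3-KO at P8 the developmental and adult fast shares lay between those of WT at P8 and P23. The developmental share was 61.4% ± 0.316 (SD, n = 3) and the adult fast share 26.8% ± 0.326, and neither overlapped with WT at either age. The slow and cardiac share of 11.8% ± 0.632 lay above both WT means, overlapping only with P23. The mean Myh13 share of 0.0332%, from 11 to 17 reads a library, lay below both WT means and also overlapped only with P23. Myh3 made up 6.01% ± 0.0963 against 25.6% ± 5.71 in WT, and Myh1 21.7% ± 0.0818 against 3.90% ± 1.97, while the Myh8 shares of 55.4% ± 0.308 and 58.7% ± 3.05 overlapped. The INSL3-KI libraries held too few myosin reads for a stable mix. Adult fast genes made up between 2.59% and 56.1% of theirs at P8, the highest share being that of replicate 1.

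**Figure D3:**
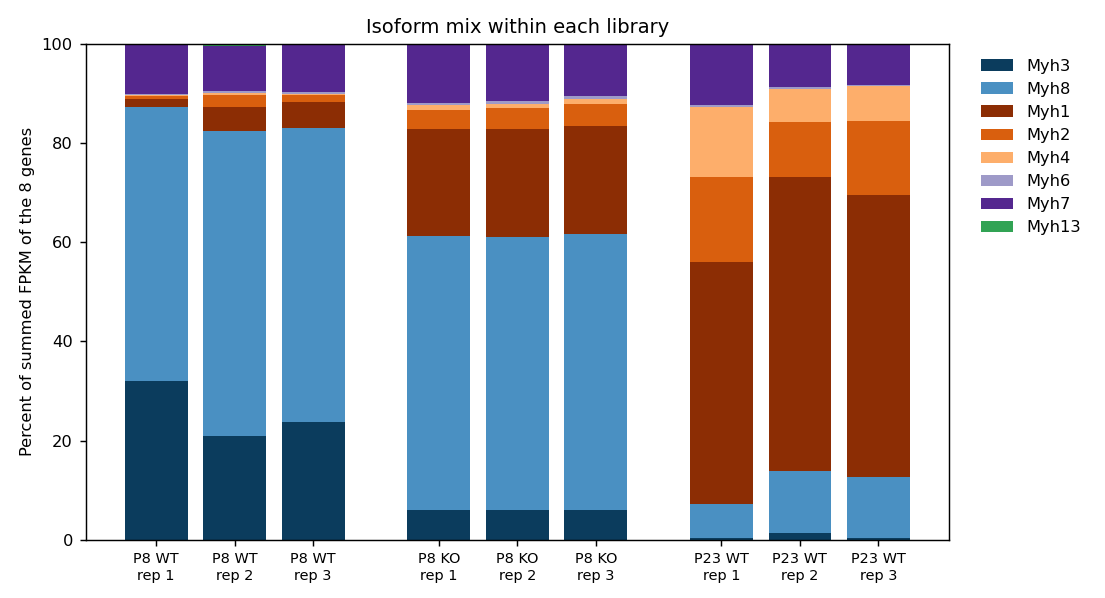
Share of each gene in the summed FPKM of the 8 genes, as stacked bars, in the 9 gubernaculum libraries with ample myosin reads. The blue developmental genes fill 84.3% of the P8 WT bars on average, 61.4% of the INSL3-KO bars and 11.2% of the P23 WT bars.

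Ratios between isoforms were also taken within each library. The log2 ratio of developmental to adult fast FPKM was 5.23, 3.39 and 3.59 in P8 WT, 1.21, 1.19 and 1.19 in INSL3-KO and -3.47, -2.48 and -2.65 in P23 WT. The mean of INSL3-KO differed from that of P8 WT by -2.87 and from that of P23 WT by 4.06, with no overlap (two-sided exact permutation p = 0.1 each, the smallest that 3 against 3 libraries can give). The log2 ratio of Myh3 to Myh8 fell by 1.98 from P8 WT to INSL3-KO without overlap (exact permutation p = 0.1), and the INSL3-KO values of -3.23, -3.18 and -3.20 lay within the P23 WT range of -4.85 to -3.14. The Myh7 to Myh8 ratio in INSL3-KO was above P8 WT by only 0.33 (exact permutation p = 0.1). In 3 of the 8 ratios the INSL3-KO mean lay below both WT means. These were Myh2 to Myh1 (-2.42, against -1.46 at P8 and -1.94 at P23), Myh4 to Myh1 (-4.48, against -3.70 and -2.66) and Myh13 to Myh8 (-10.84, against -7.61 and -7.94), of which the last overlapped with neither WT group. Over 8 ratios and 3 pairs of groups, no p can fall below 0.1, and none would pass an adjustment.

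**Figure D4:**
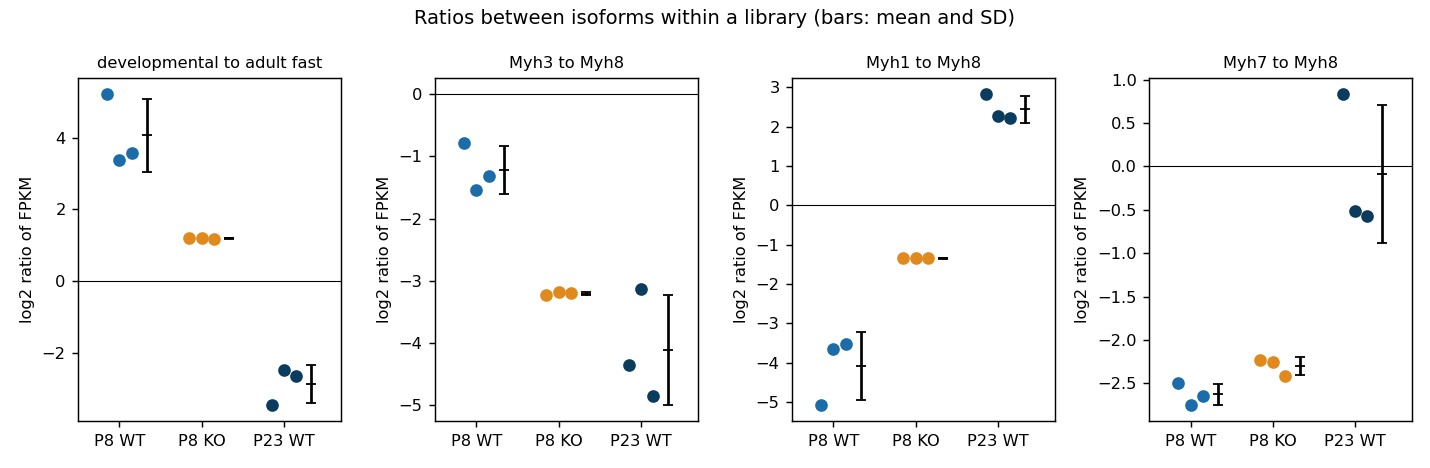
Log2 ratios of FPKM between isoforms in each library of 3 gubernaculum groups; points are libraries, bars the mean and SD, and each panel has its own axis. INSL3-KO libraries lie between P8 WT and P23 WT for the developmental to adult fast ratio (1.19 to 1.21) and for Myh1 to Myh8, with hardly any spread.

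The skeletal muscle markers moved with the myosins. All 9 (Acta1, Ckm, Des, Tnnt3, Tnni2, Actn2, Myod1, Myog, Pax7) were called lower at P8 in INSL3-KI and in INSL3-KO, where 9.70% and 15.2% of all genes were. Their summed FPKM was 14162 to 15469 in WT, 4144 to 4451 in INSL3-KO and 746 to 1270 in INSL3-KI. Much of the INSL3-KI sum was Acta1 and Des, at 728 ± 219 and 293 ± 87.0 FPKM (SD, n = 3). Des, which smooth muscle also expresses, was 153 ± 8.53 FPKM in INSL3-KO. The myogenic factors were almost absent in INSL3-KI. Myod1 had at most 4 reads in any INSL3-KI library at P8, Myog at most 4 and Pax7 0, against at least 3130, 11589 and 1391 reads in each WT library.

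Each gene's nearest companions were sought among 16342 genes by the root mean square difference of centred log2(CPM + 1) profiles over the 15 gubernaculum libraries. These libraries differ in depth and in tissue content. Myh3 lay nearest to Actc1 (0.77), the fetal and cardiac actin, and Myog (1.21), the muscle differentiation factor. Myh8 lay nearest to Ttn (0.70) and Actn2 (0.86), and Myh7 to Tnni2 (0.47) and Actn2 (0.57), which encode parts of the sarcomere. Myh1 lay nearest to Myh2 (0.86) and Atp2a1 (1.07), the calcium pump of fast fibres. Myh2 lay nearest to Xirp2 (0.77) and Eef1a2 (0.83), and Myh4 to Myh2 (0.95) and Mb (1.06), the gene of myoglobin. Myh6 lay nearest to Pfkm (0.38) and Sgca (0.42), and Myh13 to Sync (0.54) and Ache (0.58).

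The light chains that pair with these motors were lower too. Of 6 striated light chain genes, 5 were tested at P8 and all 5 were called lower in both mutants. Of all genes 9.70% were in INSL3-KI and 15.2% in INSL3-KO. The median change of the light chains on the log2 scale was -9.97 for INSL3-KI and -1.503 for INSL3-KO. Myl4, the embryonic and atrial light chain, changed most in INSL3-KO (-3.65 ± 0.16) and also fell with age in WT (-3.55 ± 0.31), as Myh3 did. Myl1 (-1.16), Mylpf (-1.67), Myl2 (-1.503) and Myl3 (-1.45) changed less in INSL3-KO. None of these 4 was called with age in WT.

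Among 13 partners of the thick filament (myosin binding proteins, M-band proteins, myosin kinases, titin and obscurin), 12 were tested at P8 and 11 were called lower in each mutant. Medians were -7.10 in INSL3-KI, where 9.70% of all genes were called lower, and -2.77 in INSL3-KO, where 15.2% were. Myom3, an M-band protein, was at -8.29 in INSL3-KI and -3.28 in INSL3-KO. At P23, 5 of 11 tested were called lower in INSL3-KI, against 2.35% of all genes, among them Ttn (-12.25) and Mylk4 (-11.44). With age in WT, 2 of 12 tested were called higher, against 6.17% of all genes, and 0 lower, against 4.34%. Those that rose with the adult fast genes were Mybpc2 (3.004), the fast myosin binding protein, and Mylk2 (2.27), the skeletal myosin light chain kinase.

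Of 9 chaperones and ubiquitin ligases that fold or degrade myosin, 5 were called lower in INSL3-KI at P8 and 6 in INSL3-KO, against 9.70% and 15.2% of all genes. Unc45b, the muscle myosin chaperone, was at -4.32 in INSL3-KI and -2.84 in INSL3-KO, and Smyd1 was at -8.53 and -2.81. Against the rest of its list, Fbxo32 (atrogin-1, a ubiquitin ligase of wasting muscle) was higher in both, by 4.19 in INSL3-KI and 2.41 in INSL3-KO. It also rose with age in WT (2.73). Of 18 transcriptional regulators of fibre type, 14 were called lower in INSL3-KI and 12 in INSL3-KO, against 9.70% and 15.2% of all genes. They include Tbx15, a factor of fast fibres (-8.98 and -2.58). Vgll2 had no reads in any INSL3-KI library at P8 and was at least 1014-fold lower in CPM. Eya4 (1.60) and Nfix (1.87), the latter a factor of the switch from embryonic to fetal muscle genes, were called above INSL3-KO in INSL3-KI, against the direction of the myosins in that comparison.

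Myosin heavy chains of other muscle and non-muscle cells did not move as 1 group. Of 6 such genes, 1 was called lower and 2 higher in INSL3-KI at P8, and in INSL3-KO 3 of 5 tested were lower and 1 higher. Myh7b, a slow-type relative, was called lower in INSL3-KI (-7.51) and INSL3-KO (-4.81), while Myh11, the smooth muscle chain, was higher in both (7.50 and 5.22). Myh11 measured 3.72 ± 2.12 FPKM (SD, n = 3) in P8 WT, 152 ± 6.46 in INSL3-KO and 869 ± 156 in INSL3-KI. In INSL3-KI it therefore exceeded the sum of the 8 striated genes. The smooth muscle markers as a group, Myh11 included, showed the same, with 5 of 6 called higher in each mutant, where 14.4% of all genes were in INSL3-KI and 15.5% in INSL3-KO, and sums of 544 to 754 FPKM in WT, 3153 to 3354 in INSL3-KO and 7180 to 8497 in INSL3-KI. Among 5 light chains of smooth and non-muscle myosin, 2 were called higher and 2 lower in INSL3-KI and 1 each way in INSL3-KO. Myl9 rose (3.12 in INSL3-KI and 1.95 in INSL3-KO) and Myl6b fell (-7.20 and -2.58).

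Testis of the mutants was described by counts alone, among genes with a mean of at least 10 reads over the compared libraries. Those sought had all mutant libraries above the WT libraries of the same age, with at least 2-fold higher mean CPM. Too low to be counted were Myh4 at P8, Myh8, Myh2 and Myh4 at P23, and Myh8 and Myh2 at P40. In INSL3-KI testis this held for 2 members at P8 (Myh1 and Myh13), against 10.6% of all genes counted. It held for 5 at P23, which was every member counted there, against 32.8%, and for 4 at P40, against 43.1%. In INSL3-KO testis it held for 0 at P8, against 9.33%, and for 3 at P23, against 44.3%.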

How the data were processed

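Gubernaculum and testis of WT, INSL3-KI and INSL3-KO mice were analysed from 39 mRNA libraries, 3 per group. The authors aligned paired-end reads with HISAT2; the submitters' processing notes name GRCm38, and the counting program is not given in the sources used here. Raw counts and FPKM were deposited by gene, each unit in a first table of 27 libraries and a second of 12 (INSL3-KO and P23 WT testis). Tables were joined on Ensembl identifiers, and the 21561 shared genes hold 94.2% to 97.9% of the counts of a library.

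Counts were tested with edgeR 4.0.16 (R 4.3.3; quasi-likelihood, TMM, filterByExpr with a minimum count of 10 and total of 15) on the compared groups alone, and p-values were adjusted by Benjamini and Hochberg across every tested gene. Calls needed an adjusted p under 0.01 and a change of at least 2-fold. FPKM served for levels between genes and shares. A group with at most 3 counts in every library was taken as not detected, and this floor covers counting error only. The fit was tested on counts simulated for INSL3-KI against WT at P8 alone, with changes set only in well-counted genes. That check covers neither members with few reads nor the more variable P23 libraries. Alternatives were DESeq2 1.42.0, limma 3.58.1 on log2(FPKM + 1) and log2(FPKM + 0.1), no filter, library size scaling, a replicate block, 1 fit of all gubernaculum groups, and leaving out each library. The 8 genes, the gene lists and the tests were chosen with earlier results of these data known. Named genes were all 8 members, the 2 nearest profiles of each, and in each list genes among the 3 lowest adjusted p, those called against their list's majority, and further examples chosen after their values were seen. The labels call replicates biological without saying whether any shared a litter, so p-values measure the spread between these libraries.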

Additional observations from a re-analysis of the deposited data

Results flagged for a closer look

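The mutant testes lie outside the gubernaculum comparisons, and the members whose 3 mutant libraries all lay above the WT libraries of the same age, with at least 2-fold higher mean CPM, are given here with their values. As above, only genes with a mean of at least 10 reads over the compared libraries were counted. This left out Myh4 and Myh8 at P23, which in INSL3-KI had 11 to 26 and 8 to 13 reads, against 0 to 2 and 0 to 5 in WT. The pattern held for 10.6% of all genes counted in INSL3-KI at P8, 32.8% at P23 and 43.1% at P40, and for 9.33% in INSL3-KO at P8 and 44.3% at P23, so at the later ages it is common. Among the members counted, Myh13 showed it most strongly. Its ratio of mutant to WT was 8.80 in INSL3-KI at P8, 9.93 in INSL3-KI and 10.8 in INSL3-KO at P23, and 10.5 in INSL3-KI at P40. Reads of Myh13 numbered 264 to 421 in P40 INSL3-KI testis against 21 to 52 in WT. Myh1 was 4.85 times WT in INSL3-KI testis at P8 and 4.33 at P23.

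At P23, Myh6 and Myh7 stood at 3.36 and 3.02 times WT in INSL3-KI and at 3.77 and 3.75 in INSL3-KO, and Myh3 at 2.22 in INSL3-KI. At P40 the ratios in INSL3-KI were 2.79 for Myh6, 2.21 for Myh7 and 3.69 for Myh4, the last from at most 22 reads. WT and INSL3-KI testis at P23 lie in different deposited tables, so table and genotype cannot be told apart there. These differences were not tested, and all levels were low, at most 5.08 FPKM for any member in any testis library.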

How the results depend on the processing

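Counts of called genes stayed within 1.5 times the main count in the P8 comparisons of mutants and WT, of the 2 mutants, and of gubernaculum and testis, in every alternative run. They did not at P23 or with age. For INSL3-KI against WT at P23 (6 called lower) leaving out 1 library gave 1 to 5. With age in WT (3 lower, 3 higher) leaving out 1 library gave 0 to 3 lower and 0 to 3 higher, and 1 fit of all gubernaculum groups gave 1 lower and 1 higher. For the age difference of the INSL3-KI effect (0 called), DESeq2 gave 3 lower, limma on log2(FPKM + 1) 2 lower and 2 higher, limma on log2(FPKM + 0.1) 1 higher, and 1 fit of all groups 2 lower. The cause of these shifts was not tested, beyond fewer samples where a library was left out. Shares of all genes called in the alternatives are not given here.

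The labels give every group replicate numbers 1 to 3, and the samples were treated as unpaired. In no comparison did the residuals of same-numbered libraries correlate above 0.1 for every number (range -0.24 to 0.46). For INSL3-KI against WT at P23 the correlations were -0.12, 0.34 and 0.46, so this check cannot settle whether samples were paired. With a replicate block, INSL3-KI against WT at P23 gave 0 called and age in WT 1 lower and 0 higher. The counts under the block were within 1.5 times the main count in the other comparisons.

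Signs turned for members that had not been called. Leaving out 1 library gave INSL3-KI age changes of -2.69 to 1.92 for Myh1 and -3.31 to 2.43 for Myh2, both positive without P8 INSL3-KI replicate 1. For the age difference of the INSL3-KI effect it gave -2.23 to 0.0005 for Myh8 (1.24 in limma on log2(FPKM + 1)) and -3.99 to 2.03 for Myh13, the lowest without P23 INSL3-KI replicate 3. The Myh13 share in P8 WT was 0.303% of FPKM and 0.232% of counts. Scaling by library size alone moved the median change of all genes from 0.02 to 0.34 in INSL3-KI against WT at P8 and turned no member's sign. limma on FPKM was not run for INSL3-KO, whose table was processed separately.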
